A study of Mus musculus with 12 samples.

Results

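Integrins are adhesion receptors made of an alpha and a beta chain, and the 9 genes described here encode 4 alpha chains (Itga4, Itga6, Itgal, Itgav) and 5 beta chains (Itgb1, Itgb2, Itgb3, Itgb5, Itgb7). They were taken by symbol from a count table of 27179 genes, and all 9 were found. The table came from RNA sequencing of macrophages sorted from the mammary ducts of female C57BL/6 mice, with 3 libraries from virgin mice, 3 from mice at day 16.5 of gestation, 3 from lactating mice and 3 from mice whose litters had been weaned 1 month earlier. The stages shared the strain and the labelled cell type, and no genotype or treatment other than the stage was given. Each library was made from 2000 cells; the sort gates are not described here. The 4 stages give 6 pairwise comparisons, which ask how these cells differ over the reproductive cycle of the gland.

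An integrin reaches the cell surface only as a pair, so a chain acts through the partners that are made with it. The chain encoded by Itgal (CD11a) pairs with that of Itgb2 (CD18) into a receptor for ICAM proteins on other cells. Itgav pairs with Itgb1, Itgb3 or Itgb5 into receptors for matrix proteins with an RGD motif, such as vitronectin, which also release latent TGF-beta and help macrophages to bind dying cells. Itga4 pairs with Itgb1 or Itgb7 and binds VCAM1, fibronectin or MAdCAM1, and Itga6 with Itgb1 or Itgb4 forms laminin receptors. The short tail inside the cell carries the contact sites: talin and kindlin bind a pair of NPxY-like motifs in the beta tail, and the alpha tail opens with a GFFKR motif that holds the chains together.

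These tails are shown for the 3 beta and 2 alpha members with the most transcript per kilobase among the 9 genes, because the chains that could pair in these cells differ in this stretch. The sequences are coding bases from the GENCODE M21 annotation of GRCm38, all on the plus strand, 5′ to 3′. Capitals mark the codons of the beta-tail motifs and of the GFFKR motif.
Itgb5, chr16:33948663-33948734: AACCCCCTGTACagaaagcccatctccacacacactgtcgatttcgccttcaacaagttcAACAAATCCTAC
Itgb2, chr10:77565181-77565228: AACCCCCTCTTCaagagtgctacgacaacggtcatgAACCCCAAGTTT
Itgb1, chr8:128732029-128732076: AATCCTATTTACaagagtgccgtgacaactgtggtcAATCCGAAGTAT
Itgav, chr2:83803243-83803287: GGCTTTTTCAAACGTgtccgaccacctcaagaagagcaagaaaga
Itgal, chr7:127333455-127333499: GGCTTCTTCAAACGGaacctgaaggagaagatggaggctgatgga
Between the motifs, Itgb5 had 16 codons where Itgb1 and Itgb2 had 8. Over the 48 bases shown, Itgb1 and Itgb2 were identical at 33 (68.8%), and over 45 bases Itgal and Itgav were identical at 23 (51.1%).

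Library totals ran from 6926273 to 21204704 counts. All 15 macrophage markers had counts at every stage, among them Adgre1, Csf1r and Fcgr1. Lactating replicate 3 stood apart: across genes, its Pearson r with the rest of its stage averaged 0.713, against 0.778 to 0.917 for the other 11 libraries with their own stage, and 10 milk and secretory genes took 7.41% of its counts, against at most 1.52% elsewhere. The NK cell genes Ncr1 and Gzma had 153 and 228 counts in it and 0 in the other 11 libraries. Where leaving it out changed a call, the value without it is given. The p-values measure the spread between samples labelled biological replicates. In bulk RNA, fewer cells of a type and less RNA per cell cannot be told apart.

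Per kilobase, transcripts of Itgb5 were the most abundant of the 9 genes. Levels across genes are given as RPKM, TMM-scaled CPM divided by the gene length in kilobases, as the median of the 12 libraries. The median was 175 RPKM for Itgb5, 81.8 for Itgb2, 69.0 for Itgb1, 24.5 for Itgav and 14.2 for Itgal. Itga4 and Itga6 both stood at 4.59 RPKM, Itgb7 at 0.20 and Itgb3 at 0. Itgb5 was above Itgb2 in 12 of 12 libraries, and Itgb1 was above Itgav in 12 of 12. Other neighbours in this order changed places: Itgb2 was above Itgb1 in 8 libraries, Itgav above Itgal in 10, Itgal above Itga6 in 11 and Itga6 above Itga4 in 7. Among alpha genes outside these 9, Itgax stood at 70.9 RPKM, Itga5 at 49.99 and Itga9 at 16.6, so Itgav was the highest alpha gene only among the 4 alpha members.

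**Figure D1:**
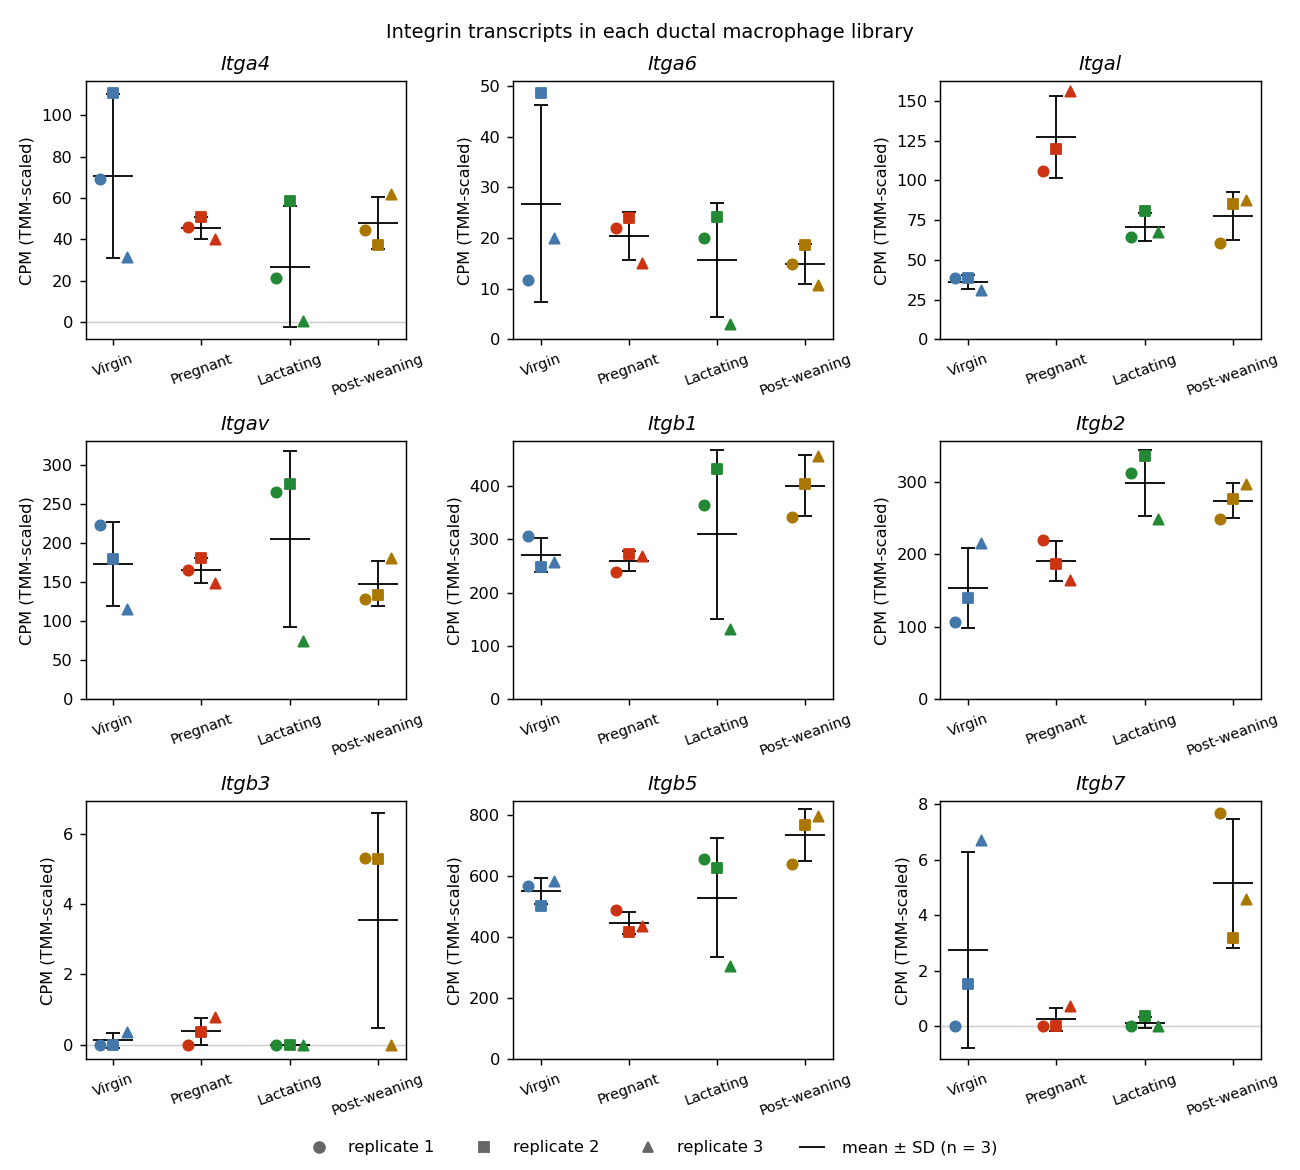
Level of each integrin gene in each library (y axis, TMM-scaled CPM, on a separate scale for each gene) at the 4 stages (x axis); markers are replicates and bars are mean ± SD, n = 3. Itgal lies at 106 to 156 CPM in pregnant libraries, above all others, and Lactating replicate 3 (triangle) lies lowest of the 12 libraries for Itga4, Itga6, Itgav, Itgb1 and Itgb5.

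Of the 8 members tested, Itgal alone was called, and it rose in pregnancy. Itgal had 106, 120 and 156 CPM in pregnant libraries, against 38.7, 38.8 and 31.1 CPM in virgin libraries. In lactating libraries it had 64.3, 80.6 and 67.3 CPM, and after weaning 60.4, 84.9 and 87.6 CPM. Every pregnant library was above every other library, every virgin library was below every other, and the lactating and post-weaning libraries overlapped. Means were 127 ± 26.1 CPM in pregnant and 36.2 ± 4.39 CPM in virgin libraries (SD, n = 3 each), from 5769 and 1253 counts, a log2 fold change of 1.81 ± 0.25 (SE), or 3.52-fold, at an edgeR adjusted p of 0.0070. In this comparison 0.442% of the 12672 genes tested were called higher and 1.32% were called in either direction, at an adjusted p under 0.05. The call held in each of the 12 fits that left out a library, with log2 fold changes of 1.64 to 1.93, and in the 9 other alternatives. 

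Itgal was intermediate in the other stages, and these differences missed the threshold. Against virgin libraries its log2 fold change was 0.97 ± 0.24 in lactation (edgeR adjusted p = 0.0740) and 1.10 ± 0.24 after weaning (edgeR adjusted p = 0.604), with no overlap of the libraries in either case. Against pregnant libraries it was -0.85 ± 0.24 in lactation (edgeR adjusted p = 0.0793) and -0.71 ± 0.24 after weaning (edgeR adjusted p = 0.289), again with no overlap. Itgal (Entrez gene 16408) lies on chromosome 7, 127296139 to 127335137, in GRCm38.p6, and no annotated gene overlaps it. The 3 genes whose log2 CPM followed Itgal most closely over the 12 libraries were Apoc2 (Pearson r = 0.934), Ctc1 (0.918) and Fam189a2 (0.910). These values describe likeness among libraries that share their stages and scaling.

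Other cell markers were set beside the rise of Itgal, because lymphocytes also express this gene. The 12 T and NK cell markers summed to 63.6 to 107 CPM in pregnant and 27.3 to 60.1 CPM in virgin libraries. Most of this was Cd4, with 61.0, 68.8 and 104 CPM in pregnant and 55.0, 22.9 and 42.8 CPM in virgin libraries. Cd3e, Cd3g, Cd8b1, Ncr1 and Gzma were at 0 in all pregnant libraries, and Cd3d had 3 counts in 1 of them. In all virgin libraries Cd8a, Cd8b1, Lck, Ncr1 and Gzma were at 0, whereas Cd8a and Lck had counts in pregnancy. Of the 4 markers of this list that could be tested, 0 were called in any comparison. The 9 B and plasma cell markers went the other way, at 165 to 236 CPM in pregnant and 252 to 435 CPM in virgin libraries, with 0 called. Summed macrophage markers stood at 41517 to 45012 CPM in pregnant and 20498 to 23047 CPM in virgin libraries. This difference lay in Lyz2, the lysozyme gene, which rose with a log2 fold change of 2.74 ± 0.45 (edgeR adjusted p = 0.0152). The other 14 markers summed to 17190 to 18057 CPM in pregnant and 17378 to 18663 CPM in virgin libraries. The 10 milk and secretory genes summed to 2602 to 14394 CPM in pregnant and 686 to 1006 CPM in virgin libraries. Of this list, 4 genes were called higher in pregnancy (Csn1s1, Csn1s2a, Csn2 and Glycam1), and over the 3 virgin libraries Csn2 had 1 count and the other 3 genes had 0. The luminal epithelial list, with 0 called, summed to 479 to 1376 CPM in pregnant and 103 to 861 CPM in virgin libraries. The part of the Lyz2, Cd4, B and plasma cell, milk and epithelial differences in the level of Itgal was not tested. Nor was their part in the falls in pregnancy described further on.

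Itgb2, the only beta partner of Itgal, did not pass the test in pregnancy. Itgb2 had 220, 187 and 165 CPM in pregnant libraries, against 107, 139 and 215 CPM in virgin libraries, so the stages overlapped (log2 fold change 0.31 ± 0.25, edgeR adjusted p = 0.775). It had 312, 336 and 248 CPM in lactating and 249, 277 and 297 CPM in post-weaning libraries, all above every virgin and every pregnant library. Against virgin libraries the log2 fold change was 0.96 ± 0.25 in lactation (edgeR adjusted p = 0.0899) and 0.83 ± 0.25 after weaning (edgeR adjusted p = 0.726). Without Virgin replicate 3, the highest virgin library, the lactating difference was 1.27 with an edgeR adjusted p of 0.0356. Of the 3 genes closest to Itgb2, the first was Cd9 (r = 0.933), a tetraspanin of the integrin-associated list, ahead of Tmem189 (0.911) and Ftl1 (0.899).

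The ratio of Itgal to Itgb2 transcripts was accordingly highest in pregnancy. Ratios of partner genes were chosen after their values were seen and are given without a test. In RPKM, Itgal over Itgb2 was 0.263, 0.351 and 0.519 in pregnant libraries, against 0.198, 0.152 and 0.0793 in virgin libraries. It was 0.113, 0.131 and 0.149 in lactating and 0.133, 0.168 and 0.162 in post-weaning libraries, so the pregnant libraries lay above the other 9. Itgax (CD11c), another alpha partner of Itgb2, stood close to it per kilobase, with ratios of 0.509 to 2.34 across the libraries, and passed no pairwise test. Itgam (CD11b), whose chain also pairs with that of Itgb2, stayed between 0 and 23.8 CPM, and Itgad between 0 and 3.64 CPM.

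**Figure D2:**
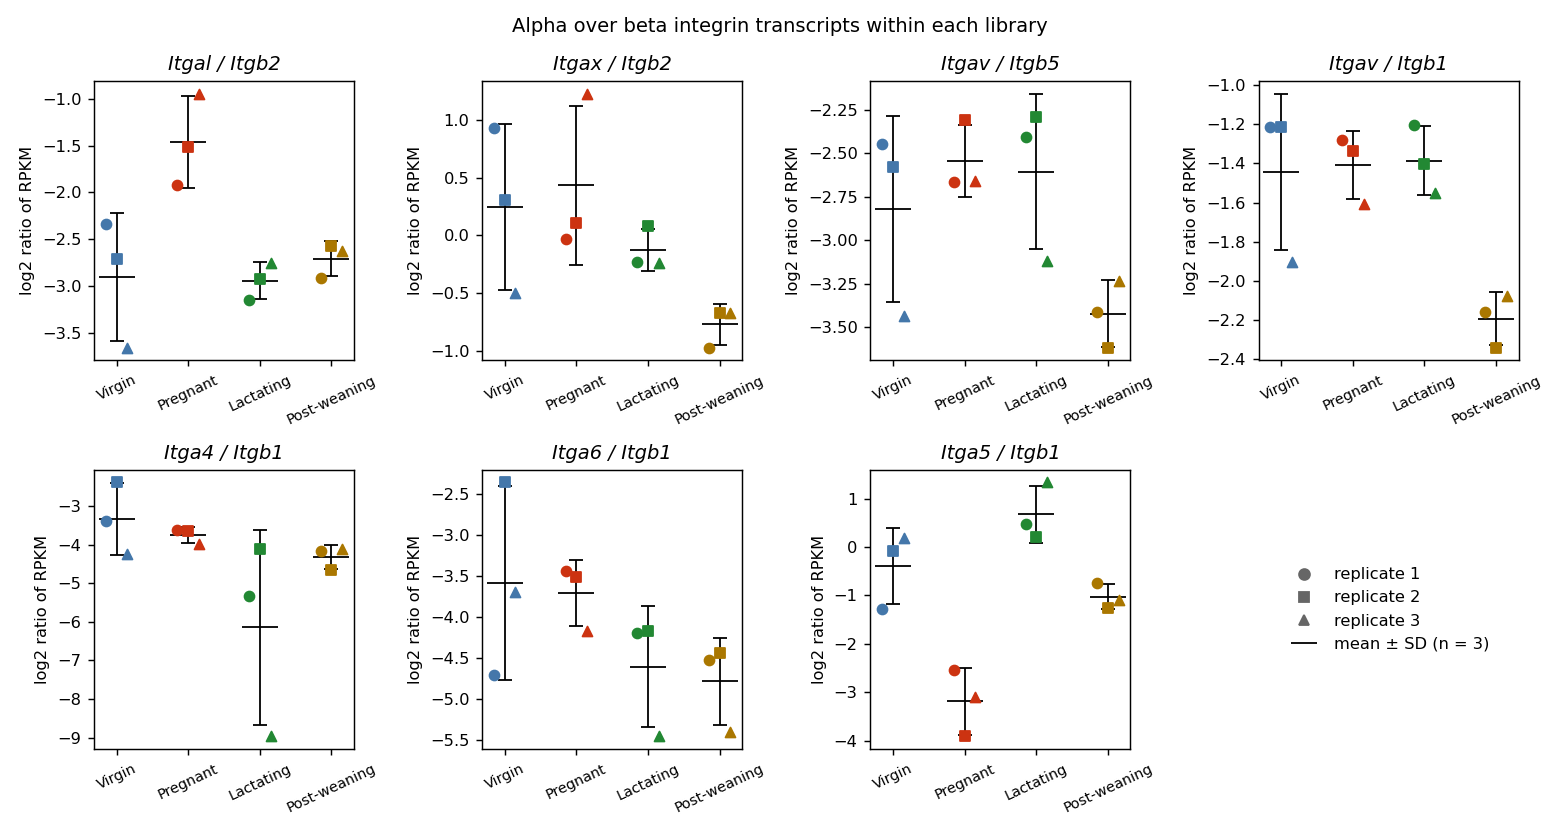
Log2 ratio of alpha to beta transcripts per kilobase (y axis) in each library for 7 pairs of chains at the 4 stages (x axis); markers are replicates and bars are mean ± SD, n = 3. Itgal over Itgb2 is highest in pregnant libraries, Itga5 over Itgb1 lowest there, and Itgav over Itgb1 lowest after weaning.

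Itgb5, which pairs with Itgav, was lowest in pregnancy and highest after weaning, without passing the test. It had 565, 501 and 582 CPM in virgin, 487, 417 and 437 CPM in pregnant, 655, 627 and 304 CPM in lactating and 638, 767 and 796 CPM in post-weaning libraries. The post-weaning libraries lay above all virgin and all pregnant libraries, and the lactating libraries overlapped every other stage. Against pregnant libraries, the post-weaning log2 fold change was 0.71 ± 0.26 (edgeR adjusted p = 0.332), and without Lactating replicate 3 it was 0.73 with an edgeR adjusted p of 0.0197. Against virgin libraries, it was 0.42 ± 0.26 after weaning (edgeR adjusted p = 0.982) and -0.30 ± 0.26 in pregnancy (edgeR adjusted p = 0.805), the pregnancy difference without overlap.

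Itgb1, the shared beta chain of the matrix receptors, varied in a like way. It had 307, 248 and 257 CPM in virgin, 239, 272 and 269 CPM in pregnant, 364, 433 and 131 CPM in lactating and 342, 404 and 456 CPM in post-weaning libraries. All post-weaning libraries were above all virgin and pregnant ones, but the log2 fold changes of 0.57 ± 0.34 over virgin (edgeR adjusted p = 0.962) and 0.62 ± 0.34 over pregnant libraries (edgeR adjusted p = 0.614) did not pass. Across the 12 libraries, Itgb1 and Itgb5 followed each other (r = 0.913, Spearman's rho = 0.825), the highest Pearson r among the 21 pairs of members with counts in every library. This is a description over libraries that share their stages and scaling. Laptm5, a lysosomal membrane gene of blood cells, was the closest gene to both, at r = 0.934 for Itgb1 and 0.951 for Itgb5.

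Itgav did not pass in any comparison. Its libraries had 223, 180 and 116 CPM in virgin, 165, 181 and 148 CPM in pregnant, 266, 275 and 75.2 CPM in lactating and 129, 134 and 181 CPM in post-weaning mice, and all stages overlapped. Relative to Itgb1, its RPKM were 0.224, 0.197 and 0.237 after weaning, against 0.431, 0.431 and 0.267 in virgin libraries. Pregnant and lactating libraries ranged from 0.328 to 0.435, so the post-weaning ratios were the lowest of the 12. Klra2 was the gene closest to Itgav (r = 0.939). Itgav overlaps the annotated pseudogene Dnmt3l-ps1, which has no counts of its own in the table.

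Itgb3, another beta partner of Itgav, was nearly absent. It had 58, 52 and 0 counts in the post-weaning libraries and 0, 0 and 0 in the lactating libraries, with 0, 3 and 19 in pregnant and 0, 0 and 5 in virgin libraries. It failed the filter on low counts and so was the 1 of the 9 genes not tested. Pooled by stage, 110 counts after weaning against a floor of 3 counts over the lactating libraries made it at least 25.7-fold higher, but all of these counts came from 2 of the 3 post-weaning libraries. This bound covers counting error only.

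The alpha chains that bind VCAM1 and laminin were low and scattered. Itga4 had 69.2, 111 and 31.7 CPM in virgin, 45.8, 50.7 and 40.0 CPM in pregnant, 21.1, 58.5 and 0.614 CPM in lactating and 44.4, 37.2 and 61.8 CPM in post-weaning libraries. Lactating replicate 3 had 7 counts of it, and all stages overlapped. Itga6 had 11.7, 48.7 and 19.96 CPM in virgin, 22.02, 24.0 and 14.99 CPM in pregnant, 19.9, 24.1 and 2.98 CPM in lactating and 14.9, 18.7 and 10.8 CPM in post-weaning libraries, also overlapping throughout. Their standard errors reached 0.95 and 0.71 on the log2 scale, and a difference between stages was not detectable at this spread. Itga4 overlaps Cerkl on the opposite strand, which had 115 counts over all libraries; whether the counting used strand is not stated, so reads of the 2 genes cannot be told apart. The closest genes were Pitpnc1 (r = 0.985) for Itga4 and Seh1l (0.939) for Itga6. Lactating replicate 3 was the lowest of the 12 libraries for both members, and its part in these r values was not tested. With each other, Itga4 and Itga6 had r = 0.817 but Spearman's rho = 0.308.

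Itgb7, the leukocyte partner of Itga4, had counts in 7 libraries. It had 84, 31 and 53 counts after weaning, against 0, 2 and 0 in lactation, 0, 0 and 17 in pregnancy and 0, 19 and 92 in virgin libraries. The post-weaning libraries lay above all lactating and pregnant libraries and overlapped the virgin ones. Pooled counts gave a post-weaning to lactating ratio of 58.9 (exact 95% interval 16.05 to 490.2, for counting error only). The log2 fold change of 5.39 ± 2.46 did not pass the test (edgeR adjusted p = 0.331). The gene passed the low-count filter through its post-weaning libraries.

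**Figure D3:**
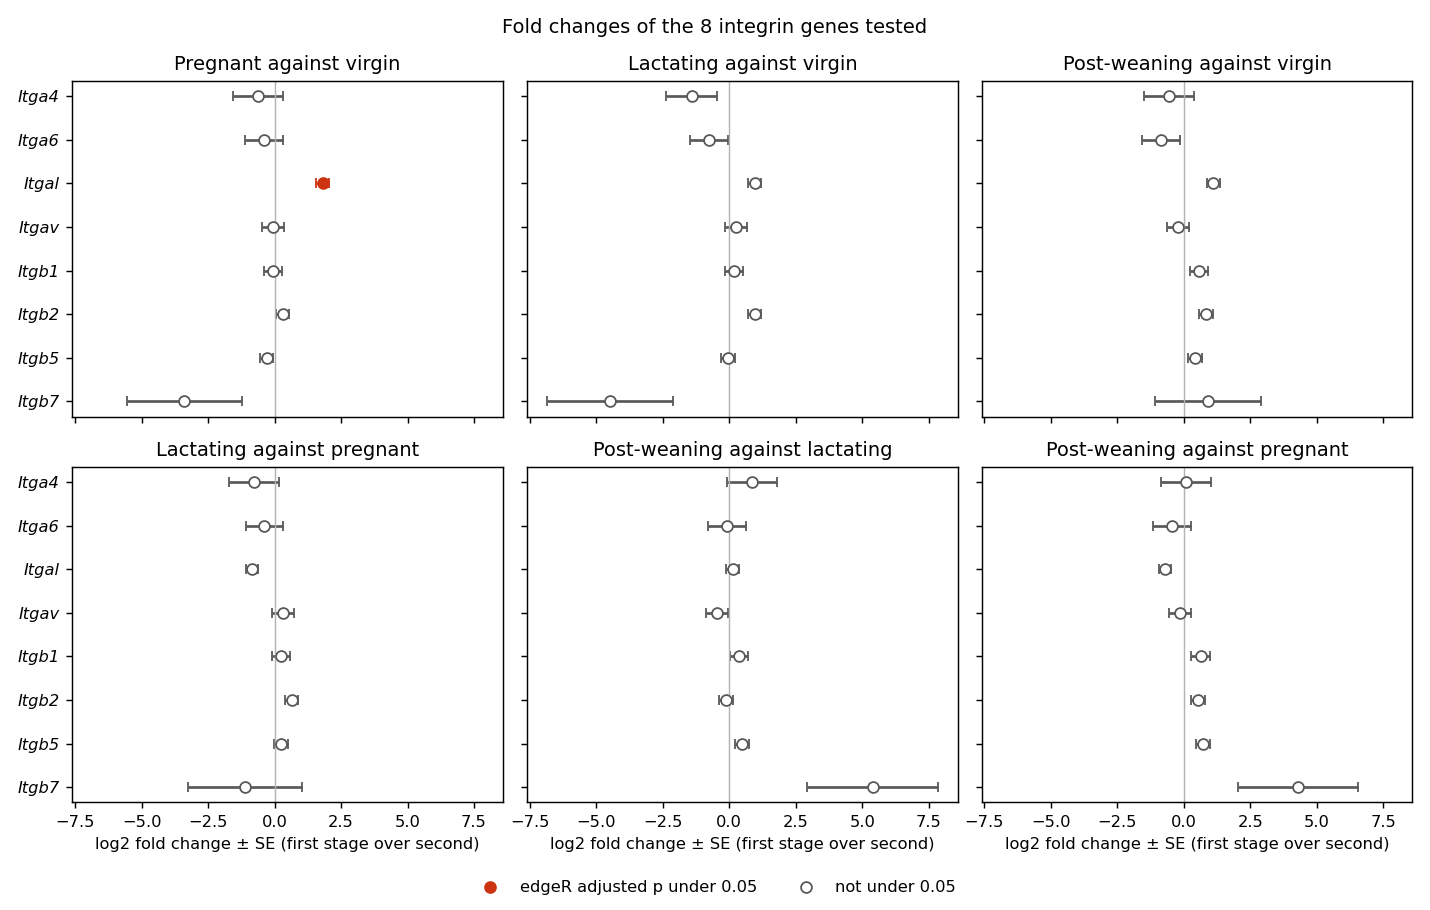
Log2 fold change of the 8 tested integrin genes (x axis, first-named stage over the other, ± SE from the edgeR fit to 12 libraries) in the 6 comparisons of stages. Itgal in pregnant against virgin libraries (filled, 1.81 ± 0.25) is the only call, and the bars of Itgb7 are the widest.

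Of 48 tests, 8 genes in 6 comparisons, 1 passed and 47 did not. In the test of any difference between the stages, Itgal passed (edgeR adjusted p = 0.0106) and Itgb2 was next (edgeR adjusted p = 0.126), so 1 of 8 members was called where 3.35% of all genes were. The lowest pairwise adjusted p outside Itgal was 0.0899. Counts of members without overlap are given over the 7 with counts in every library, since Itgb7 passed the filter through 1 stage. After weaning, 4 of these 7 (Itgal, Itgb1, Itgb2, Itgb5) lay above every virgin library, where 8.83% of all genes did, and their median log2 fold change was 0.42, against 0.02 for all genes tested. In this comparison edgeR called 0 genes of 12672, with 765 at an unadjusted p under 0.05, while DESeq2 called 125 and limma-voom 1. Over pregnant libraries, 3 of the 7 (Itgb1, Itgb2, Itgb5) lay higher after weaning, where 14% of all genes did. These comparisons share stages and are not independent.

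The other counts of members that did not overlap between stages stood as follows. In pregnant against virgin libraries, 1 of the 7 was higher (Itgal; 13.6% of all genes) and 1 lower (Itgb5; 10.7%). In lactating against virgin libraries, 2 were higher (Itgal, Itgb2; 8% of all genes) and 0 lower (9.34%), with 0 called where 1.94% of all genes were. After weaning, 0 members were lower than in virgin libraries (6.55% of all genes), and 1 was lower than in pregnant libraries (Itgal; 13.3%), with 0 called where 0.718% were. In lactating against pregnant libraries, 1 was higher (Itgb2; 9.5% of all genes) and 1 lower (Itgal; 17.1%), with 0 called where 3.85% were. In post-weaning against lactating libraries, 0 of the 7 were higher (12.8% of all genes) and 0 lower (8.76%), with 0 called where 0.923% were.

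**Figure D4:**
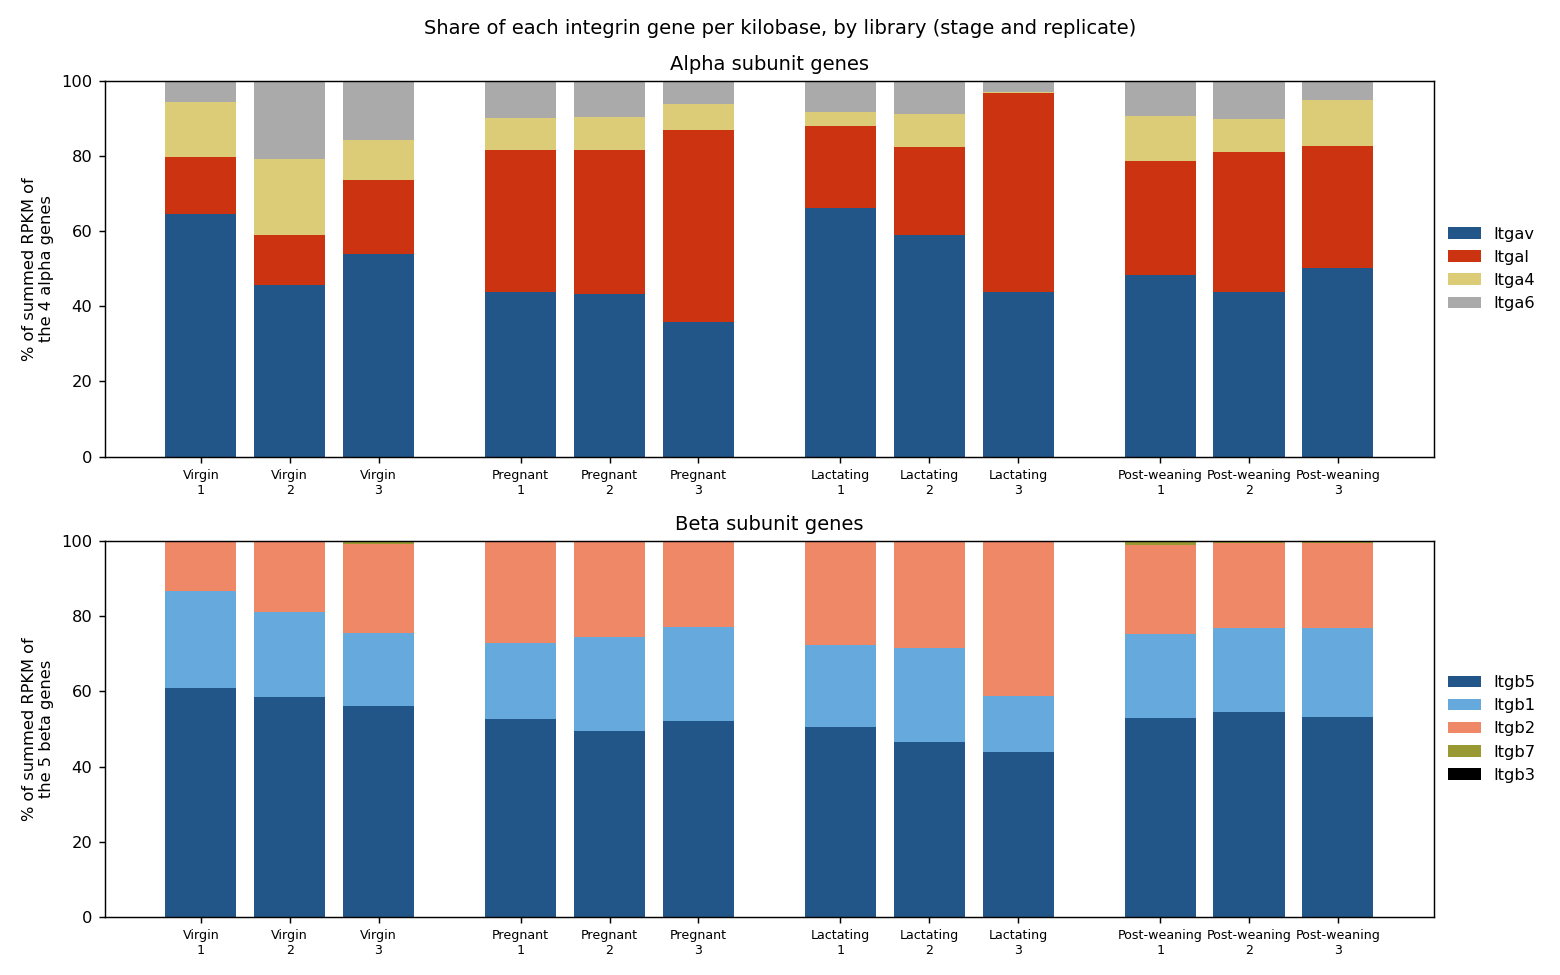
Share of each gene (y axis, % of the summed RPKM of the 4 alpha genes above and the 5 beta genes below) in each library (x axis). Itgal takes 37.8 to 51.0% of the alpha total in pregnant libraries and 13.3 to 19.7% in virgin libraries, and Itgb5 takes 44.0 to 60.9% of the beta total in every library.

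Within the 4 alpha members, which leave out Itgax, Itga5 and Itga9, transcripts shifted towards Itgal in pregnancy. Itgal made up 42.5 ± 7.43% of the summed RPKM of the 4 alpha genes in pregnant and 16.04 ± 3.26% in virgin libraries (SD, n = 3 each), with 32.6 ± 17.6% in lactating and 33.5 ± 3.51% in post-weaning libraries. The lactating libraries were at 21.6, 23.3 and 53.0%, the highest being Lactating replicate 3, which also held the Ncr1 and Gzma counts; their part in this share was not tested. Itgav made up 40.9 ± 4.35% in pregnant and 54.8 ± 9.49% in virgin libraries. Among the 5 beta genes, Itgb2 made up 27.6, 28.5 and 41.2% in lactating libraries, the highest again in Lactating replicate 3, and 13.2, 18.6 and 23.8% in virgin libraries. All lactating shares were above all virgin shares, also without that library. These shares describe the same counts as above and were not tested.

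Among the 18 other integrin subunit genes, 10 could be tested, and Itga5 alone was called. Itga5, the fibronectin receptor chain that pairs with Itgb1, fell in pregnancy, opposite to Itgal. It had 42.6, 18.8 and 32.7 CPM in pregnant libraries, against 131, 245 and 305 CPM in virgin libraries (log2 fold change -2.85 ± 0.37, edgeR adjusted p = 0.0068), where 0.876% of all genes were called lower. In lactation it had 527, 520 and 344 CPM and rose over the pregnant libraries by a log2 fold change of 3.89 ± 0.38 (edgeR adjusted p = 0.000315). After weaning it had 213, 177 and 224 CPM and was higher than in pregnancy, at 2.70 ± 0.37 (edgeR adjusted p = 0.0122). The pregnant libraries were the lowest for Itga5 in every case. The calls against virgin and in lactation held in all 12 fits that left out a library. The post-weaning call was lost without Pregnant replicate 2 (edgeR adjusted p = 0.0676), Pregnant replicate 3 (0.0731) or Post-weaning replicate 3 (0.0593).

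Itgb1 did not move with Itga5: its log2 fold change in pregnant against virgin libraries was -0.06 ± 0.34. Per kilobase, Itga5 over Itgb1 was 0.171, 0.0664 and 0.117 in pregnant libraries, against 0.412, 0.946 and 1.14 in virgin libraries. It was 1.39, 1.16 and 2.52 in lactating and 0.597, 0.421 and 0.472 in post-weaning libraries. Itga9, another partner of Itgb1, ranged from 86.6 to 193 CPM and passed no pairwise test. Itgae, Itgb8 and Itga2b reached at most 2.54, 7.31 and 1.74 CPM.

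Integrin ligands, the matrix and cell-surface proteins that integrins bind, passed the test once. Of 52 ligand genes, 40 could be tested, and 1 was called higher in lactating than in pregnant libraries, where 2.65% of all genes were. This was Lama5, a laminin chain gene (edgeR adjusted p = 0.0460). Lama5 had 2.77, 2.01 and 44.8 CPM in lactating and 0, 0 and 0.124 CPM in pregnant libraries, so most of it lay in Lactating replicate 3. That library had the highest milk, basal epithelial and endothelial marker sums of the 12 (67956, 678 and 393 CPM). Their part in this call was not tested. Without Lactating replicate 3 the edgeR adjusted p was 0.130. The call was kept in 3 of the 12 fits that left out a library and was lost with only the 6 libraries compared (edgeR adjusted p = 0.107). The median log2 fold change of the 40 ligands in pregnant against virgin libraries was -1.04, against 0.03 for all genes tested, with 0 called. The 10 fibroblast markers summed to 6.67 to 14.5 CPM in pregnant and 48.9 to 386 CPM in virgin libraries. The 10 endothelial markers summed to 3.31 to 13.2 CPM in pregnant and 18.1 to 92.9 CPM in virgin libraries. Of either list 0 were called there. Their part in the ligand median and in the other falls in pregnancy was not tested.

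Of 64 adaptor and signalling genes, whose proteins act at or below the integrin tails, 63 could be tested. In pregnant against virgin libraries, 0 rose and 2 fell (Lpxn, a paxillin relative, and Vav3), where 0.876% of all genes were called lower. Vav3 had 4.78, 4.02 and 4.35 CPM in pregnant and 24.0, 22.2 and 23.5 CPM in virgin libraries (log2 fold change -2.40 ± 0.52, edgeR adjusted p = 0.0486). The log2 fold change of Lpxn was -1.29 ± 0.28 (edgeR adjusted p = 0.0486). Both were near the threshold: of the 12 fits that left out a library, Lpxn kept its call in those without Lactating replicate 1 or 3, and Vav3 in those without Lactating replicate 2 or 3, with edgeR adjusted p values up to 0.217 and 0.229. With no filter on low counts both calls were lost (edgeR adjusted p = 0.0549 and 0.0791). With the replicate number as a block both were also lost (edgeR adjusted p = 0.0784 and 0.114). The list's median was -0.33, against 0.03 for all genes.

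In lactating against pregnant libraries, 6 of the 63 adaptor genes rose and 0 fell, where 2.65% of all genes were called higher. Rac2, a small GTPase of blood cells that drives the actin skeleton, had 284, 304 and 253 CPM in lactating and 118, 74.7 and 67.3 CPM in pregnant libraries (log2 fold change 1.69 ± 0.26, edgeR adjusted p = 0.0045). Pxn, which encodes paxillin, rose by 2.33 ± 0.45 (edgeR adjusted p = 0.0134), Lpxn by 1.42 ± 0.28 (0.0159) and Vav3 by 2.63 ± 0.53 (0.0163). Syk and Cyth1 were also called. Rac2 kept its call in all 12 fits that left out a library. Pxn lost it without Pregnant replicate 1 or 2 (edgeR adjusted p = 0.0631 and 0.0822), and Lpxn without Pregnant replicate 1 or 2 or Lactating replicate 2 (up to 0.0891). Vav3 lost it without any 1 pregnant library or Lactating replicate 1 (up to 0.0930), Syk without Pregnant replicate 1 or 2 (up to 0.107), and Cyth1 kept it in 3 of the 12 fits. In a fit of only the 6 libraries compared, Rac2 alone of the 6 kept its call, with edgeR adjusted p values of 0.0612 for Pxn, 0.103 for Lpxn and Vav3, 0.107 for Syk and 0.108 for Cyth1. The list's median log2 fold change was 0.53, against -0.14 for all genes tested. Tln1 and Fermt3, which encode the talin and the blood-cell kindlin that bind the beta tails shown above, passed no pairwise test, with ranges of 59.2 to 206 CPM and 124 to 405 CPM.

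Markers of macrophages and of other cells also differed between lactating and pregnant libraries. The 14 macrophage markers other than Lyz2 summed to 11800 to 33582 CPM in lactating and 17190 to 18057 CPM in pregnant libraries, Cd14 rose by a log2 fold change of 2.32 ± 0.46 (edgeR adjusted p = 0.0162) and Lyz2 fell by 2.17 (0.0190). Pf4, a platelet and macrophage chemokine gene, had 88.7 to 194 CPM in lactating and 15.7 to 16.6 CPM in pregnant libraries. Its log2 fold change was 2.98 ± 0.35 (edgeR adjusted p = 0.00085). Of the other platelet genes, Gp1ba, Gp1bb, Itga2b, Treml1 and Gp6 were at 0 in lactation, while Ppbp and Gp9 had counts. Gp1bb, Treml1 and Gp6 were also at 0 in pregnancy. The 8 platelet markers summed to 91.1 to 205 CPM in lactating and 16.6 to 17.3 CPM in pregnant libraries. Krt19, a luminal keratin gene, was lower, at 0 counts in all lactating and 12.6 to 26.0 CPM in pregnant libraries. The casein gene Csn1s2b was higher, and each was the only gene of its list called. The luminal epithelial list summed to 150, 205 and 1303 CPM in lactating and 479 to 1376 CPM in pregnant libraries. The milk and secretory list summed to 2568, 2521 and 67956 CPM in lactating and 2602 to 14394 CPM in pregnant libraries. The highest of these was Lactating replicate 3. The part of all these markers in the adaptor and membrane protein calls was not tested.

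**Figure D5:**
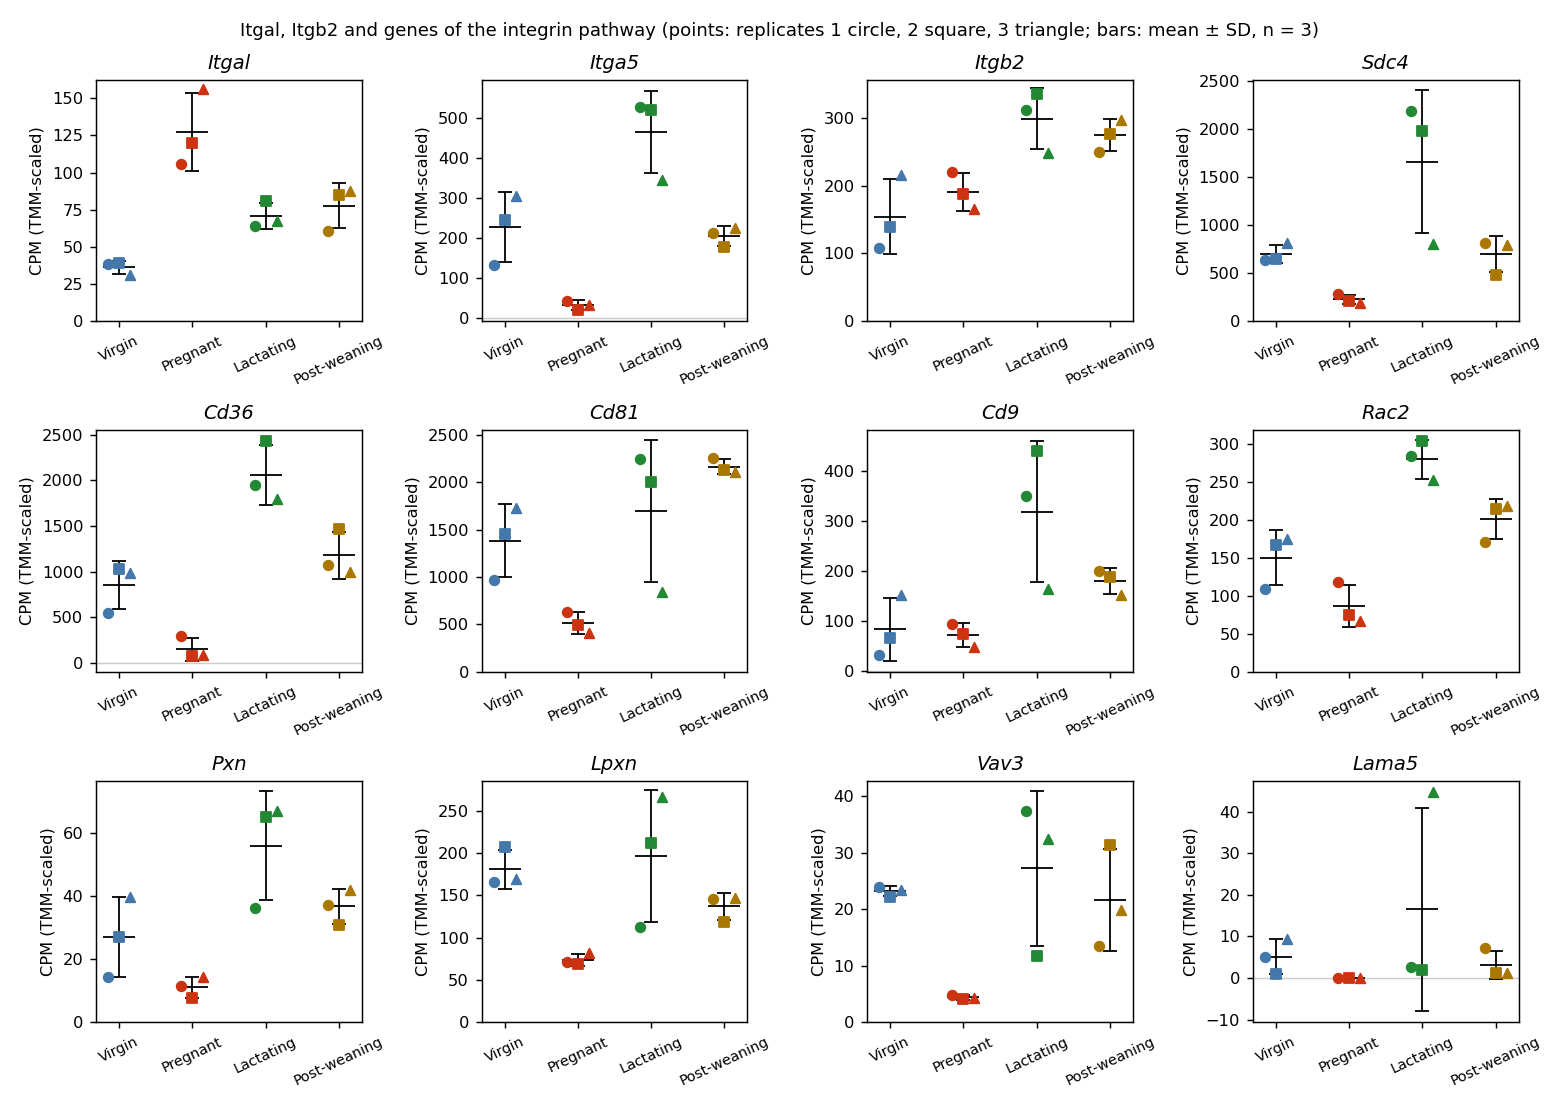
Level (y axis, TMM-scaled CPM) of Itgal, Itgb2 and 10 genes of the integrin pathway in each library at the 4 stages (x axis); markers are replicates and bars are mean ± SD, n = 3. Itgal peaks in pregnancy, whereas the pregnant libraries are the lowest of the 12 for Itga5, Sdc4, Cd36 and Vav3.

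All 17 genes for membrane proteins that associate with integrins could be tested. In pregnant against virgin libraries 0 of them rose and 2 fell, where 0.876% of all genes were called lower. Sdc4, a heparan sulphate co-receptor of focal adhesions, had 279, 205 and 193 CPM in pregnant and 640, 648 and 811 CPM in virgin libraries (log2 fold change -1.63 ± 0.35, edgeR adjusted p = 0.0484). Cd36, a scavenger receptor, had a log2 fold change of -2.49 ± 0.49 (edgeR adjusted p = 0.0318). Sdc4 kept this call only in the fit without Lactating replicate 3 and Cd36 in 5 of the 12 fits that left out a library, with edgeR adjusted p values up to 0.219 and 0.147. With only the 6 libraries compared, Cd36 also lost it (edgeR adjusted p = 0.0764). With the replicate number as a block, Sdc4 and Cd36 both lost it (edgeR adjusted p = 0.0784 and 0.0675). The list's median was -0.60, against 0.03 for all genes tested.

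In lactating against pregnant libraries, 4 of the 17 rose and 0 fell, where 2.65% of all genes were called higher. Sdc4 had 2186, 1985 and 807 CPM in lactating libraries, a log2 fold change of 2.88 ± 0.37 over pregnant ones (edgeR adjusted p = 0.0014), and Cd36 rose by 3.76 ± 0.51 (0.0022). The tetraspanin genes Cd81 and Cd9, whose products organise integrins in the membrane, rose by 1.73 ± 0.35 (0.0173) and 2.14 ± 0.52 (0.0440). Sdc4 and Cd36 kept these calls in all 12 fits that left out a library. Cd81 lost its call without Pregnant replicate 2 or 3 or Lactating replicate 1 or 2 (edgeR adjusted p up to 0.0911), and Cd9 kept its call in 3 of the 12 fits. In a fit of only the 6 libraries compared, both lost it (edgeR adjusted p = 0.103 and 0.0716). In post-weaning against pregnant libraries, Cd36 (log2 fold change 2.96 ± 0.50) and Cd81 (2.08 ± 0.35) rose, both at an edgeR adjusted p of 0.0231, where 0.576% of all genes were called higher. Cd36 kept this call in 7 and Cd81 in 6 of the 12 fits that left out a library, and both lost it without any 1 post-weaning library. The milk and secretory list summed to 1651 to 2588 CPM in post-weaning and 2602 to 14394 CPM in pregnant libraries, and its part in these calls was not tested.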

How the data were processed

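For 12 libraries of sorted mouse ductal macrophages the authors deposited unnormalized whole-number gene counts. Per the submitters' processing notes they came from featureCounts with mm10; aligner, versions and strand use are not stated there. Per the labels' protocols, SMART-Seq v4 cDNA was sequenced in 1 run, without molecular identifiers, so intervals and floors cover counting error only. RefSeq names (GRCm38.p6) matched 25275 genes (93.0%); the others held 0.327 to 0.825% of a library's counts.

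From these counts, edgeR 4.0.16 (R 4.3.3) filtered genes with filterByExpr by stage (12672 left), scaled libraries by TMM and fitted all 12 libraries together by stage with robust quasi-likelihood (common biological coefficient of variation 0.856). Calls are Benjamini-Hochberg adjusted p-values under 0.05 over all genes tested. SE is the size of the log2 fold change divided by the square root of F. CPM and RPKM use the TMM-scaled sizes and the gene length in the table. Named genes are the 9 members, a fixed set of partners, the 3 genes most like each member with counts in all libraries (log2 CPM, prior count 2; not all are given), and up to 4 called genes per list and comparison. Syk and Cyth1 were named after their values were seen. The members and lists were chosen with earlier results of these data known. Replicate libraries differed by more than sampling noise. The procedure was also run on simulated counts for pregnant against virgin libraries. Recovery there was 0% for 2-fold differences (73 genes), 22.5% for 4-fold (71) and 46.4% for 8-fold (56). The simulated run made 43 calls, and 1 was false. These rates are averages over genes drawn at random, so they do not give the power for a single member, whose own spread is its SE. A test that did not pass therefore does not by itself exclude a difference. Alternatives were DESeq2 1.42.0, limma-voom 3.58.1 with quality weights, RLE size factors, TMM excluding milk, epithelial, ribosomal and mitochondrial genes, no filter, a minimum of 5 CPM in 3 libraries, the replicate number as a block, only the 6 libraries compared, each library left out, and, added after seeing the data, bias-adjusted deviances.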

Additional observations from a re-analysis of the deposited data

How the results depend on the processing

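Of 999 recomputed fold changes (48 results), 961 kept their direction and side of the threshold, 12 newly passed, 26 changed sign and 0 lost a call. The rise of Itgal in pregnancy held throughout. Members called in any stage numbered 1, against 2 with DESeq2 and 2 with limma-voom (Itgb2 added), and 1 to 2 leaving out a library (Itgb2 without Virgin replicate 3, Itgb5 without Lactating replicate 3). In lactating against virgin libraries 0 were called, 2 with DESeq2 (Itgal, Itgb2), 1 with limma-voom (Itgb2) and 0 to 1 leaving out a library. In post-weaning against virgin libraries 0 were called and 1 with DESeq2 (Itgal). In lactating against pregnant libraries 0 were called, 1 with DESeq2 (Itgal) and 1 with limma-voom (Itgb2). In post-weaning against pregnant libraries 0 were called, 3 with limma-voom (Itgb1, Itgb5, Itgb7), 1 with only the 6 libraries (Itgb5) and 0 to 1 leaving out a library. The cause was not tested.

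Sign changes, none past the threshold, were as follows. With limma-voom the log2 fold change was 0.12 for Itga6 and 0.0018 for Itgav in pregnant against virgin, 0.15 for Itgb5 in lactating against virgin, 1.40 for Itgb7 in lactating against pregnant and -0.018 for Itga4 in post-weaning against pregnant libraries. With the replicate block it was 0.11 for Itgb7 in lactating against pregnant and 0.14 for Itga6 in post-weaning against lactating libraries, and with bias-adjusted deviances 0.12 for Itga6 there. Leaving out a library gave, in pregnant against virgin, -0.74 to 0.36 for Itga6, -0.29 to 0.18 for Itgav and -0.12 to 0.066 for Itgb1. In lactating against virgin it gave -0.030 to 0.60 for Itgav, -0.14 to 0.51 for Itgb1 and -0.27 to 0.17 for Itgb5, and in post-weaning against virgin -0.44 to 0.015 for Itgav. In lactating against pregnant it gave -0.86 to 0.068 for Itga6, -0.10 to 0.56 for Itgb1 and -4.63 to 3.29 for Itgb7. It gave -0.51 to 0.39 for Itga6 in post-weaning against lactating and -0.16 to 0.22 for Itga4 in post-weaning against pregnant libraries.

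Counts of all genes called moved more. In pregnant against virgin, 167 were called, 659 by DESeq2, 473 by limma-voom, 357 with bias-adjusted deviances, 438 without Lactating replicate 3 and 40 without Pregnant replicate 2. No pairing by replicate number was seen: deviations of 18 same-numbered pairs correlated at 0.0033 on average, and 0 exceeded 0.1. The labels do not say what these numbers mark, and this check cannot exclude a shared batch. The replicate block left 100 calls in pregnant against virgin libraries and 223 in any stage (424 without it), and changed no member's call. Besides the losses given above, it lost Cyth1 (edgeR adjusted p = 0.0581) and Cd9 (0.0931) in lactating against pregnant libraries. In post-weaning against pregnant libraries it lost Cd36 (0.0568) and Cd81 (0.0556). Itgb3, fitted only with no filter, had its lowest adjusted p at 0.342. At these depths, Itgb3 and Itgb7 had 0 counts in 7 and 5 libraries.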
